A study of Mus musculus with 18 samples.

Results

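The genes described here make cholesterol from acetyl-CoA, sense sterol in the endoplasmic reticulum, or move and store cholesterol. They are 28 of the 15572 genes in the liver RNA-seq count table, chosen by name from the SREBP-2 pathway, and their promoters were examined among 26180 genes with an annotated transcript start. By role, 3 members are thiolases or the HMG-CoA synthase, 6 carry mevalonate to prenyl diphosphates, 12 carry squalene to cholesterol, 3 act in sterol sensing, and 4 act in sterol transport and storage. All 28 had a row in the count table and passed the filter on low counts. Other genes of the pathway were not analysed here, so the 28 do not cover all of its steps.

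All samples were livers of C57BL/6J mice, with 2 samples in each of 9 groups. WT mice were compared with JMJD1C-LKO littermates, in which floxed Jmjd1c, a histone H3 lysine 9 demethylase gene, was removed by Cre under the albumin promoter, which is active in hepatocytes. The labels give a chow diet for 6 to 8 weeks, an overnight fast and then 6 h of a high-carbohydrate diet, while the methods give 8 to 16 h for feeding experiments. RNA-seq was made from refed WT and refed JMJD1C-LKO livers, 2 pooled RNA samples each, ATAC-seq from 2 fasted WT, 2 refed WT and 2 refed JMJD1C-LKO livers, and H3K9me2 ChIP-seq from 2 fasted and 2 refed WT livers. Fasted and refed are read from the letters in the sample titles as the paper's reporting summary explains them, since the labels give every sample the same treatment text. The targeted gene was not analysed here, so the genotype labels were not checked against its expression.

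In the pathway, acetyl-CoA is joined to HMG-CoA and reduced to mevalonate, which is phosphorylated and decarboxylated to isoprenoid units. These units are joined into farnesyl diphosphate, the branch point to squalene and sterols on one side and to geranylgeranyl groups on proteins on the other. When sterol in the endoplasmic reticulum is low, Scap carries the transcription factor SREBP-2 to the Golgi, where it is cut and released to the nucleus. When sterol is high, the Insig proteins hold Scap back and cholesterol synthesis genes are less transcribed. The liver makes cholesterol for lipoproteins and bile acids, and insulin after a meal is known to favour synthesis.

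Some libraries stood apart. The RNA-seq libraries held 51265128 to 54400509 estimated counts. Libraries of one group differed from each other well beyond counting noise (chi-square per degree of freedom 12.7 for the WT pair and 32.6 for the JMJD1C-LKO pair). Such a value speaks only to the same library sequenced again. It cannot tell separate RNA pools from repeat libraries of the same pool. The ATAC-seq livers had 5220 and 7632 summits when fasted, 5027 and 3119 when refed, and 1450 and 825 in JMJD1C-LKO, and the share of summits within 1000 bp of a transcript start was 15.3% in fasted WT replicate 2 and 22.7% in JMJD1C-LKO replicate 2 against 42.5% to 59.7% in the other 4 livers. Of the H3K9me2 livers, refed replicate 1 had 1297 summits, 5.01% of them near a start, against 7690 to 13456 summits and 83.5% to 92.0% near a start in the other 3. The summit lists hold no read counts, so the depth behind them is unknown.

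Without JMJD1C in hepatocytes, the 28 genes of synthesis, sensing, transport and storage did not move as one group in refed liver. Of the 28 members, 7 were lower in JMJD1C-LKO than in WT (Stard4, Mvd, Sqle, Idi1, Fdft1, Sc5d and Soat2), 10 were higher (Insig2, Dhcr7, Tm7sf2, Mvk, Npc2, Scap, Pmvk, Msmo1, Npc1 and Insig1), and 11 did not pass an adjusted p of 0.05 in edgeR's quasi-likelihood test. Among all 14151 genes tested, 13.4% were lower and 14.6% higher by the same test. The members' median log2 fold change was -0.10 and that of all genes 0.01. Without TMM scaling, 10 members were lower and 9 higher, with 2268 and 1717 over all genes. Both WT libraries carried weight in the counts. Without either WT library the counts fell in both directions, for the members and over all genes alike. Without JMJD1C-LKO replicate 1, more members and more of all genes were lower, while fewer members and more of all genes were higher. Without JMJD1C-LKO replicate 2, the counts fell in both directions for the members and over all genes. Each fit without a library leaves 1 in its group.

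**Figure D1:**
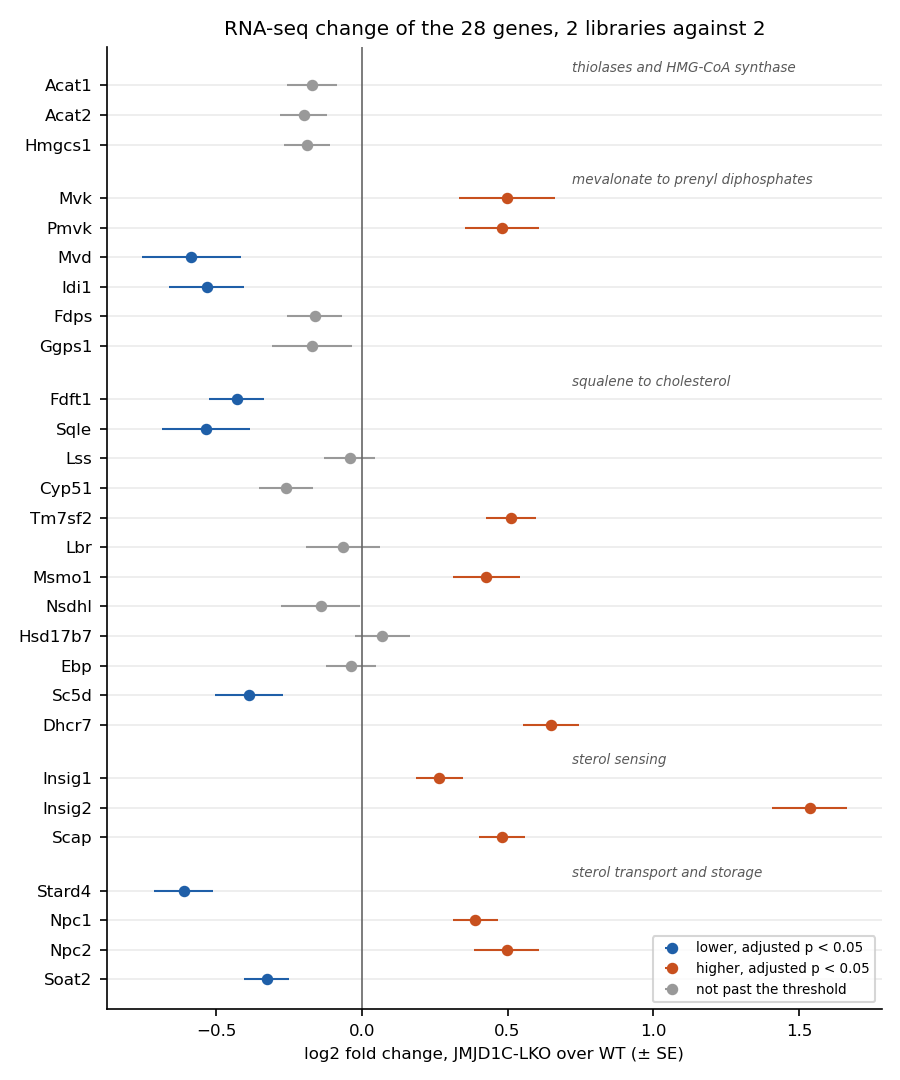
Log2 fold change of the 28 genes, JMJD1C-LKO over WT refed liver, on the horizontal axis with 1 standard error on each side, from 2 libraries against 2, ordered by role. Insig2 stands farthest to the right at 1.54, the called genes reach down to -0.61 at Stard4, and the genes of 3 of the 5 roles lie on both sides of 0.

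The sterol sensing genes were all 3 higher, and Insig2 had the largest change of the 28 members. Insig2 holds Scap in the endoplasmic reticulum, and a form of it that rises on fasting and falls with insulin is known in liver. Its level was 71.7 and 69.7 CPM (counts scaled to library size with TMM factors) in the WT libraries and 174.5 and 235.5 CPM in the JMJD1C-LKO libraries. Both JMJD1C-LKO values lay far above both WT values, and the difference was 2.90-fold (log2 fold change 1.54, SE 0.13, adjusted p = 9.33e-05), with rank 61 by p among all genes tested. Scap, the escort of SREBP, was at 81.1 and 85.7 CPM in WT and 114 and 119 CPM in JMJD1C-LKO, without overlap (log2 fold change 0.48, SE 0.08, adjusted p = 0.00233). Insig1, the paralog of Insig2 and itself an SREBP target, was at 49.8 and 48.8 CPM in WT and 62.0 and 56.6 CPM in JMJD1C-LKO, a smaller difference (log2 fold change 0.27, SE 0.08, adjusted p = 0.0362) that missed the threshold in 5 of 10 other fits, among them DESeq2 and those without either WT library. The Insig2 call held in each of 10 other fits, with log2 fold changes of 1.30 to 1.73.

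Insig2 has 3 annotated start sites at chr1:121304353-121332589 (mm10, minus strand), and 2 of its 4 transcripts passed the threshold when tested singly. When every transcript was fitted by itself, a choice made after the data were seen, 2.12% of 22296 transcripts were higher and 1.38% lower. NM_178082, which starts at position 121332589, was at 33.1 and 31.0 CPM in WT and 87.7 and 111 CPM in JMJD1C-LKO (log2 fold change 1.63, SE 0.13, adjusted p = 0.0256). NM_001271531, which starts downstream of it at position 121327678, was at 30.7 and 31.0 CPM in WT and 75.9 and 109 CPM in JMJD1C-LKO (log2 fold change 1.58, SE 0.18, adjusted p = 0.0317). For both transcripts the JMJD1C-LKO values lay well above the WT values. NM_001271532 was at 7.21 and 6.96 CPM in WT and 9.25 and 12.5 CPM in JMJD1C-LKO and did not pass the threshold (log2 fold change 0.62, SE 0.19, adjusted p = 0.125), and NM_133748 was below 4 CPM in every library. The authors' counting split reads among these transcripts, and whether their changes differ from each other was not tested. At transcript level, 3 members had a transcript called higher and 0 one called lower, against 9 and 9 at an unadjusted p of 0.05 and 6 and 3 in DESeq2. A member counts here with any called transcript among 44 tested. The share of all genes counted in this way was not computed, so no excess is read from these counts.

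**Figure D2:**
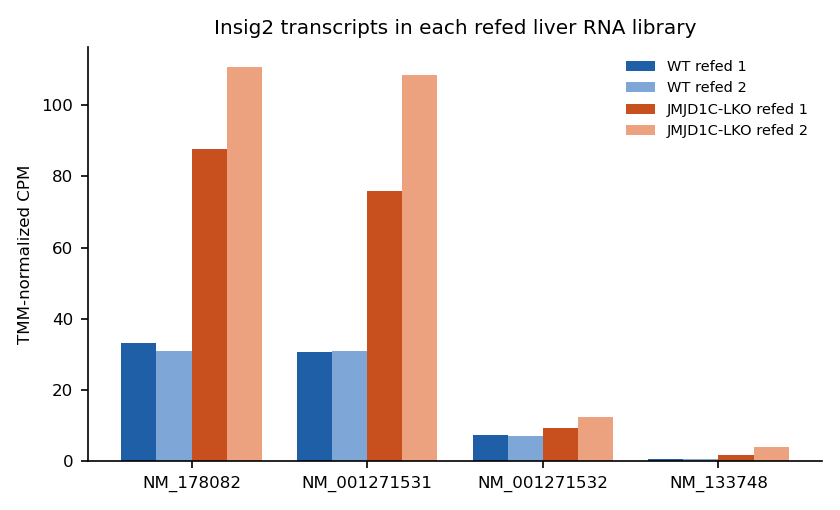
Level of 4 Insig2 transcripts (bars, TMM-normalized CPM) in each of the 2 WT and 2 JMJD1C-LKO refed libraries. The main forms, NM_178082 and NM_001271531, stand near 31 to 33 CPM in WT and at 75.9 to 111 CPM in JMJD1C-LKO.

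At the entry to the pathway none of 3 genes passed the threshold in edgeR, 2 being lower at an unadjusted p of 0.05 and 0 called in DESeq2. Hmgcs1, the cytosolic HMG-CoA synthase, was at 61.8 and 62.8 CPM in WT and 56.6 and 52.7 CPM in JMJD1C-LKO (log2 fold change -0.19, SE 0.08, adjusted p = 0.105). Acat2, the cytosolic thiolase, was at 46.0 and 45.4 CPM in WT and 41.2 and 38.4 CPM in JMJD1C-LKO (adjusted p = 0.0907), and Acat1, the mitochondrial thiolase of ketone body metabolism, at 478 and 461 CPM in WT and 440.0 and 395 CPM in JMJD1C-LKO (adjusted p = 0.172). For all 3 genes both JMJD1C-LKO values were below both WT values, by fold changes of 0.87 to 0.89. The share of all genes with such a separation was not computed, so no shared fall is read from it.

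From mevalonate to prenyl diphosphates, 2 of 6 genes were higher, 2 were lower and 2 did not pass the threshold in edgeR, with 1 higher and 1 lower in DESeq2. Mvk, mevalonate kinase, was at 5.96 and 5.0 CPM in WT and 8.58 and 6.91 CPM in JMJD1C-LKO (log2 fold change 0.50, SE 0.16, adjusted p = 0.0478), a call that was lost in DESeq2 and in 6 other fits. Pmvk, phosphomevalonate kinase, was at 9.07 and 7.96 CPM in WT and 11.1 and 12.6 CPM in JMJD1C-LKO (log2 fold change 0.48, SE 0.13, adjusted p = 0.0198). The kinases were 1.41-fold and 1.40-fold higher, and neither showed an overlap of WT and JMJD1C-LKO values. Mvd, the decarboxylase that follows, was at 4.61 and 4.81 CPM in WT and 3.18 and 3.10 CPM in JMJD1C-LKO (log2 fold change -0.59, SE 0.17, adjusted p = 0.0290), a call that was lost in DESeq2 and in 3 other fits. Idi1, which interconverts the isoprenoid units, was at 18 and 20 CPM in WT and 14.9 and 11.5 CPM in JMJD1C-LKO (log2 fold change -0.53, SE 0.13, adjusted p = 0.0144). Fdps, farnesyl diphosphate synthase, and Ggps1, which makes geranylgeranyl diphosphate, did not pass the threshold. Fdps was at 21.1 and 23.3 CPM in WT and 20.8 and 18.9 CPM in JMJD1C-LKO, and for Ggps1, at 10.3 and 10.6 CPM in WT and 8.18 and 10.4 CPM in JMJD1C-LKO, the groups overlapped.

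From squalene to cholesterol, 3 of 12 genes were lower, 3 were higher and 6 did not pass the threshold. The first enzymes of the branch were lower. Fdft1, squalene synthase, was at 115 and 121 CPM in WT and 94.8 and 79.9 CPM in JMJD1C-LKO (log2 fold change -0.43, SE 0.10, adjusted p = 0.00986). Of the Fdft1 exon bases 20.9% lie opposite exons of Ctsb on the other strand, and whether counting used strand is not given in the sources used here. Sqle, squalene epoxidase and a known control point, was at 8.29 and 9.37 CPM in WT and 6.76 and 5.46 CPM in JMJD1C-LKO (log2 fold change -0.53, SE 0.15, adjusted p = 0.0269). Sc5d, a desaturase near the end of the pathway, was at 167 and 174 CPM in WT and 148 and 113 CPM in JMJD1C-LKO (log2 fold change -0.39, SE 0.12, adjusted p = 0.0343).

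Of the later enzymes, Dhcr7, the reductase that makes cholesterol from its last precursor in one of the routes, was at 13.9 and 14.5 CPM in WT and 23.4 and 21.2 CPM in JMJD1C-LKO (log2 fold change 0.65, SE 0.10, adjusted p = 0.0014). Its call, like that of Insig2, held in each of 10 other fits, and these were the only 2 of the 17 members past the threshold of which this was so. Tm7sf2, a sterol C14 reductase, was at 53.6 and 61.0 CPM in WT and 81.0 and 82.2 CPM in JMJD1C-LKO (log2 fold change 0.51, SE 0.09, adjusted p = 0.00269). Lbr, a protein of the inner nuclear membrane with the same reductase activity, was at 7.87 and 8.05 CPM in WT and 7.87 and 7.35 CPM in JMJD1C-LKO and did not pass the threshold (log2 fold change -0.07, SE 0.13, adjusted p = 0.736). Msmo1, a sterol methyl oxidase, was at 19.8 and 18.3 CPM in WT and 28.5 and 22.7 CPM in JMJD1C-LKO (log2 fold change 0.43, SE 0.11, adjusted p = 0.0213).

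The other members of this branch, Lss, Cyp51, Nsdhl, Hsd17b7 and Ebp, had log2 fold changes of -0.26 to 0.07 and adjusted p of 0.0638 to 0.779. Cyp51, the lanosterol demethylase, came nearest to the threshold, at 29.0 and 28.6 CPM in WT and 25.8 and 22.3 CPM in JMJD1C-LKO. Lss, which closes the sterol ring, was at 19.3 and 18.3 CPM in WT and 18.3 and 18.2 CPM in JMJD1C-LKO. Nsdhl, a sterol dehydrogenase, was at 8.74 and 7.71 CPM in WT and 7.08 and 7.82 CPM in JMJD1C-LKO. The WT and JMJD1C-LKO ranges overlapped for Nsdhl and nearly met for Lss. Hsd17b7, a sterol ketone reductase, was at 24.4 and 23.2 CPM in WT and 23.3 and 26.6 CPM in JMJD1C-LKO.

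In sterol transport and storage all 4 genes passed the threshold, 2 in each direction. Stard4, a cytosolic sterol carrier and SREBP-2 target, was at 63.8 and 67.3 CPM in WT and 47.2 and 38.6 CPM in JMJD1C-LKO, and was the most reduced member (log2 fold change -0.61, SE 0.10, adjusted p = 0.00254). Soat2, which esterifies cholesterol in hepatocytes, was at 42.8 and 42.6 CPM in WT and 34.4 and 33.6 CPM in JMJD1C-LKO (log2 fold change -0.33, SE 0.08, adjusted p = 0.013). The lysosomal pair that exports cholesterol from lysosomes was higher. Npc1, its membrane protein, was at 102 and 106 CPM in WT and 139 and 134 CPM in JMJD1C-LKO (log2 fold change 0.39, SE 0.08, adjusted p = 0.00611), and Npc2, its soluble partner, at 45.4 and 51.6 CPM in WT and 61.2 and 75.6 CPM in JMJD1C-LKO (log2 fold change 0.50, SE 0.11, adjusted p = 0.01).

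**Figure D3:**
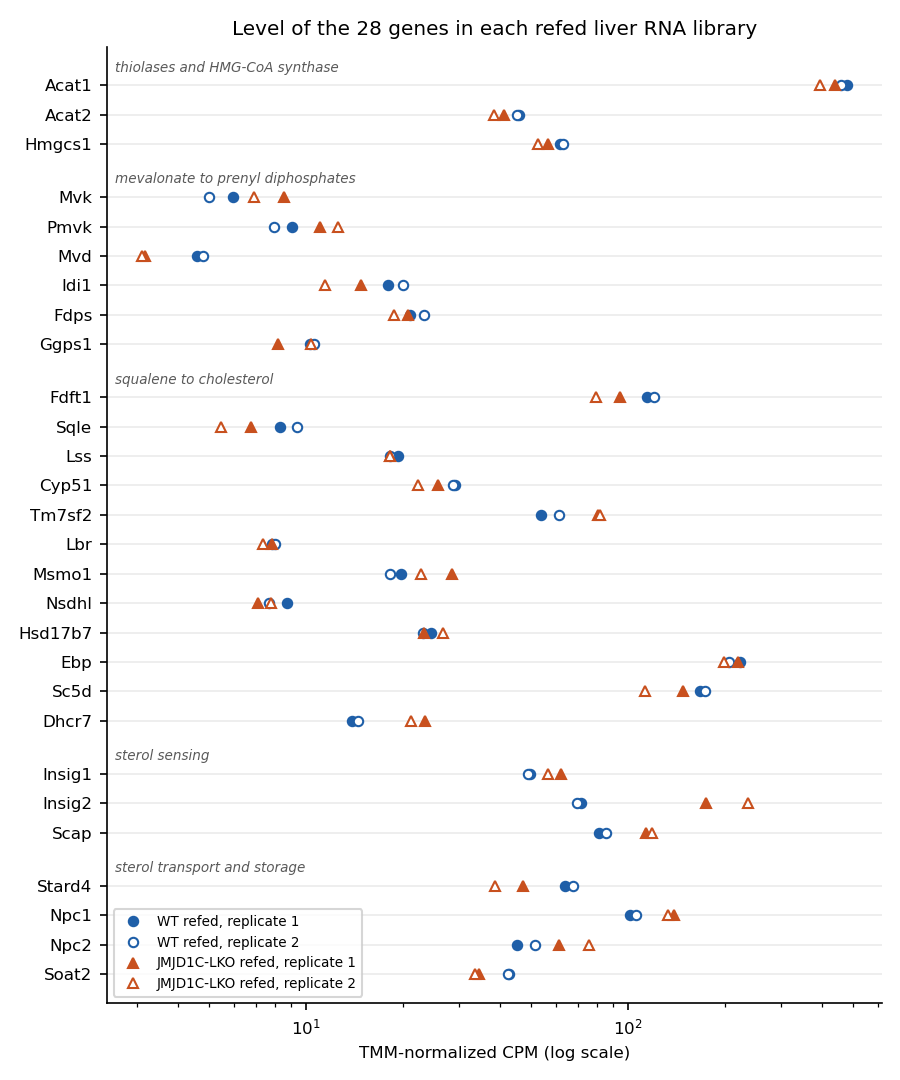
TMM-normalized CPM on a log axis for each of the 28 genes in each of the 4 refed RNA-seq libraries, circles for WT and triangles for JMJD1C-LKO, filled for replicate 1 and open for replicate 2. The circles and triangles are widest apart for Insig2, at 69.7 to 71.7 CPM against 174.5 to 235.5 CPM.

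Per length, the WT levels of the members in refed liver differed widely. In counts per kilobase of transcript, scaled to the same total in each library, Acat1 was highest at 241 and 238, followed by Ebp at 218 and 205 and Sc5d at 127 and 135. Insig2 stood at 49.9 and 49.6, above Insig1 at 32.0 and 32.1. The lowest were Mvd at 4.44 and 4.75, Lbr and Ggps1, the last of which was at 3.43 and 3.77. The least abundant members thus came both from the steps before squalene and from the squalene to cholesterol branch.

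The lists around the pathway gave these counts, beside 13.4% of all genes tested lower and 14.6% higher in edgeR. DESeq2 called 1560 genes lower and 1764 higher, and no count over all genes is given at an unadjusted p. Of 12 genes of SREBP cleavage and sterol-regulated degradation, 1 was lower (Ufd1, log2 fold change -0.25, SE 0.08, adjusted p = 0.038) and 0 were higher in edgeR, with 5 lower and 0 higher at an unadjusted p of 0.05 and 0 called in DESeq2. Of 12 genes that use prenyl diphosphates, 1 was lower (Srd5a3, log2 fold change -0.38, SE 0.12, adjusted p = 0.0377), with 2 lower at an unadjusted p of 0.05 and 0 called in DESeq2. Of 10 LXR targets and genes of sterol efflux, 6 were higher and 0 lower in edgeR, with 6 higher and 0 lower at an unadjusted p of 0.05 and 5 higher in DESeq2. The 4 not past the threshold were Nr1h3, Nr1h2, Abca1 and Lcat, with Abca1 at a log2 fold change of 0.04 (SE 0.08, adjusted p = 0.733). The higher genes included Abcg5 and Abcg8, which pair to form the transporter that moves sterol into bile. Abcg8 was at 55.0 and 56.3 CPM in WT and 105 and 112 CPM in JMJD1C-LKO (log2 fold change 0.96, SE 0.08, adjusted p = 7.97e-05), and Abcg5 at 89.6 and 84.1 CPM in WT and 132 and 140 CPM in JMJD1C-LKO (log2 fold change 0.64, SE 0.08, adjusted p = 0.000648). Scarb1, the receptor that takes up cholesterol from HDL, was at 184 and 188 CPM in WT and 307 and 324 CPM in JMJD1C-LKO (log2 fold change 0.76, SE 0.08, adjusted p = 0.000254). Abcg1, which exports sterol to HDL and is found in macrophages, was at 4.80 and 5.20 CPM in WT and 11.3 and 14.1 CPM in JMJD1C-LKO (log2 fold change 1.35, SE 0.15, adjusted p = 0.000312). Of 10 lipogenic SREBP-1c targets, 4 were lower, with Me1, Acaca and Elovl6 first by p, and 2 were higher. The first by p of all was Scd1, the desaturase of fatty acids, at 369 and 354 CPM in WT and 1315 and 1571 CPM in JMJD1C-LKO (3.99-fold higher, with an SE of 0.10 on the log2 scale, adjusted p = 1.01e-05).

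Markers of other liver cells moved between the groups. All 5 Kupffer cell markers were higher in JMJD1C-LKO, their summed level being 191 and 194 CPM in WT and 367 and 525 CPM in JMJD1C-LKO, with none of the 5 at 0. Of the 5 sinusoidal endothelial markers 4 were higher, with sums of 85.0 and 89.2 CPM in WT and 118 and 156 CPM in JMJD1C-LKO, and of 5 lymphocyte markers 1 was higher (Cd3e), with sums of 3.24 and 3.62 CPM against 5.99 and 7.38 CPM. Of the hepatocyte markers Cps1 was higher, and their sum was 98389 and 96101 CPM in WT and 96084 and 84861 CPM in JMJD1C-LKO. No stellate cell or cholangiocyte marker passed the threshold in edgeR or DESeq2, with 3 and 1 at an unadjusted p of 0.05. JMJD1C-LKO replicate 2 had the higher level of the pair for the Kupffer cell markers. Of the members called higher, the same held for Insig2, Npc2, Pmvk, Tm7sf2 and Scap. For Mvk, Msmo1, Dhcr7, Insig1 and Npc1, replicate 1 had the higher level. The part of these cells in the change of any member was not tested, and in bulk liver fewer cells of a type and less RNA per cell cannot be told apart.

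In ATAC-seq, which marks DNA open to a transposase, more of these genes had a promoter summit in the refed WT livers than in the other groups when the full lists were used. At equal list lengths this order did not hold for summits in both livers of a group, and by single liver the refed and fasted counts were close. With 1000 bp on either side of a transcript start as the window, both refed WT livers had a summit at 9 of the 28 genes (Hmgcs1, Mvk, Mvd, Idi1, Ggps1, Fdft1, Cyp51, Msmo1 and Npc2), both fasted WT livers at 3 (Mvk, Idi1 and Ggps1), and both JMJD1C-LKO livers at 1 (Ggps1). Over all 26180 genes these shares were 4.78%, 4.36% and 0.397%, and over 13825 genes tested in the RNA-seq 8.07%, 7.36% and 0.564%. By single liver, 13 and 12 members had a summit when refed (9.94% and 6.24% of all genes), 9 and 4 when fasted (12.0% and 5.49%), and 7 and 1 in JMJD1C-LKO (4.06% and 0.886%). In 1 of 2 fasted and 1 of 2 JMJD1C-LKO livers, those with few summits near starts, the member counts were lowest, and an exact two-sided permutation test of 2 livers against 2 cannot give a p below 0.333. When only the 825 best summits of each liver were kept, 3 and 3 members had one when refed (2.18% and 2.19% of all genes). When fasted there were 3 and 2 (2.09% and 1.64%), and in JMJD1C-LKO 2 and 1 (1.94% and 0.886%). At this list length the members with a summit in both livers were 0 when refed, 2 when fasted (Idi1 and Ggps1) and 0 in JMJD1C-LKO.

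Across the fed states, 6 members had a summit in at least 1 refed and no fasted WT liver (Mvd, Fdps, Lss, Lbr, Msmo1 and Nsdhl), as did 3.28% of all genes. The opposite pattern, a fasted and no refed WT liver, was found at 0 members and at 5.03% of all genes. In both refed WT livers and neither JMJD1C-LKO liver were Hmgcs1, Mvd, Fdft1, Msmo1 and Npc2, 5 members, as were 2.34% of all genes. A summit in a JMJD1C-LKO liver and no refed WT liver was found at 1 member, Acat2, and at 0.737% of all genes. No summit in any of the 6 livers was found at 11 members (Acat1, Pmvk, Sqle, Tm7sf2, Ebp, Sc5d, Insig1, Scap, Stard4, Npc1 and Soat2), against 83.2% of all genes. All members were tested in the RNA-seq, and shares of these patterns over the tested genes alone were not computed. Summits in both refed WT livers were more common among the tested genes (8.07%) than among all genes (4.78%).

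**Figure D4:**
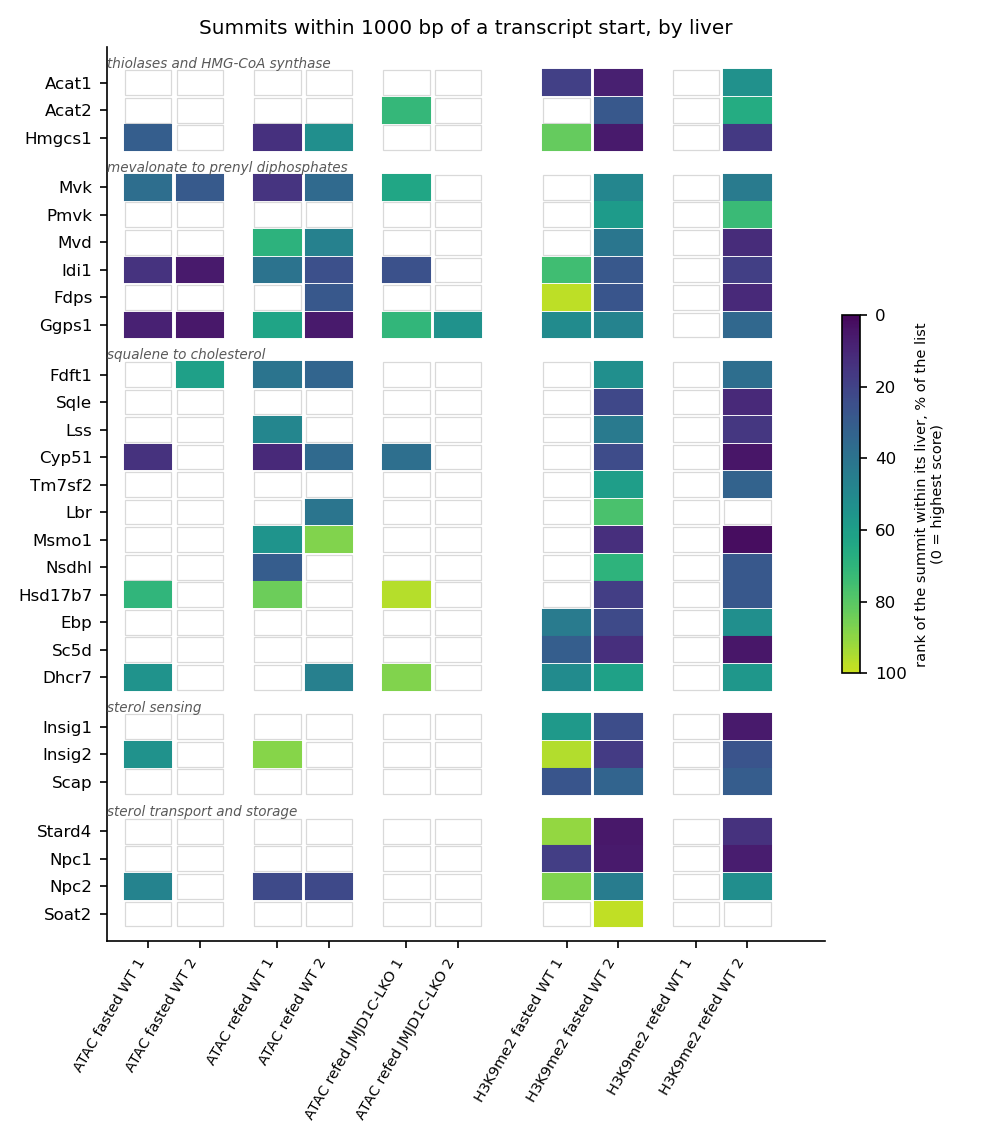
Presence of a summit within 1000 bp of a transcript start of each of the 28 genes (rows) in each of 6 ATAC-seq and 4 H3K9me2 livers (columns). Filled squares are summits, coloured by rank within their liver from the highest score (dark) to the lowest (light). ATAC-seq fills 12 to 13 rows in the refed WT livers, and H3K9me2 fills 14, 28, 0 and 26 rows.

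Promoter sequences are shown for the members with a summit in both refed but not both fasted WT livers that have an entry in the RefSeq promoter table (GRCm38.p6, the same coordinates as mm10), together with Mvk, which had a summit in all 4 WT livers. Each sequence runs 5′ to 3′ over the 150 bases before the start. Capitals mark a sterol response element core (TCACNCCAC) or a CCAAT box, searched on both strands, so that CCAAT on the other strand reads ATTGG, and the SRE and CCAAT matches do not overlap. The regions are chr13:119690201-119690350, plus strand (Hmgcs1), chr8:122443423-122443572, minus strand (Mvd), chr5:4104698-4104847, minus strand (Cyp51), chr8:64733579-64733728, minus strand (Msmo1), chr12:84773113-84773262, minus strand (Npc2) and chr5:114444119-114444268, plus strand (Mvk).
Hmgcs1: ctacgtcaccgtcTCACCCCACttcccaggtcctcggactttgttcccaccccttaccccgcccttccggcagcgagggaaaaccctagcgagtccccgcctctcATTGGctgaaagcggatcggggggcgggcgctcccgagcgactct
Mvd: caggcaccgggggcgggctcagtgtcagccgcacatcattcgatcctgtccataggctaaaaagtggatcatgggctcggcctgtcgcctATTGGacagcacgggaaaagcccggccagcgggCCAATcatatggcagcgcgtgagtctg
Cyp51: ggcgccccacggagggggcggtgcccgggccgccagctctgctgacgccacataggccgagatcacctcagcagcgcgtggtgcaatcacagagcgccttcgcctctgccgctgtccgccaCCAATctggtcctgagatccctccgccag
Msmo1: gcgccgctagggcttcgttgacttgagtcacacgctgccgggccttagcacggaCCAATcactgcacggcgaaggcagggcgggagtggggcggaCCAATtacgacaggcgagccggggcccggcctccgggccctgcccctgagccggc
Npc2: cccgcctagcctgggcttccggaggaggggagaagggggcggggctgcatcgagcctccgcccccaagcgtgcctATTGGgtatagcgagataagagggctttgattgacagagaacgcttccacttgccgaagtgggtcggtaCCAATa
Mvk: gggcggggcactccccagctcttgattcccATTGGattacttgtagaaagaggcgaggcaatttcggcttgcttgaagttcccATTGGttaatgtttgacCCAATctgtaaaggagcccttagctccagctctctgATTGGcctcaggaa

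Hmgcs1 held both kinds of match. Its SRE core spans positions -137 to -129 from the start and a CCAAT box -45 to -41, and the summits lay 112 and 106 bp upstream of the start in the refed WT livers (rank 662 of 5027 and 1644 of 3119). In fasted replicate 1 a summit lay 85 bp downstream of the start (rank 1605 of 5220). Mvd had CCAAT boxes at -60 to -56 and -27 to -23, and its summits lay 127 and 131 bp upstream in the refed livers (rank 3470 of 5027 and 1441 of 3119), with none in the fasted or JMJD1C-LKO livers. Msmo1 had CCAAT boxes at -96 to -92 and -55 to -51, with refed summits 151 and 134 bp upstream (rank 2775 of 5027 and 2734 of 3119), and likewise no summit in any other group. Mvd and Msmo1 were the only members with a summit in both refed and neither fasted WT liver, a pattern of 0.581% of all genes, and the Msmo1 summit stood at 87.7% of the list in refed replicate 2, counted from the highest score.

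At Cyp51, with a CCAAT box at -29 to -25, the summit lay 53 bp downstream of the start in both refed WT livers (rank 533 of 5027 and 1113 of 3119), 56 bp downstream in fasted replicate 1 and 61 bp downstream in JMJD1C-LKO replicate 1. Its position varied by few bases over these 4 livers of 3 groups. At Npc2, with CCAAT boxes at -75 to -71 and -6 to -2, the summits lay 36 bp downstream and 104 bp upstream in the refed livers and 5 bp upstream in fasted replicate 1. At Mvk, with 4 CCAAT boxes in the 150 bases, the summits lay 107 and 161 bp upstream in the refed livers, 95 and 88 bp upstream in the fasted livers, and 187 bp upstream in JMJD1C-LKO replicate 1.

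Idi1 and Ggps1 had a summit in each of the 4 WT livers and in JMJD1C-LKO. At Idi1 the summits lay 150 and 142 bp downstream of the start in the refed livers (rank 2024 of 5027 and 778 of 3119), 116 and 78 bp downstream in the fasted livers (rank 739 of 5220 and 416 of 7632), and 104 bp downstream in JMJD1C-LKO replicate 1 (rank 365 of 1450). At Ggps1 they lay 48 and 166 bp upstream in the refed livers (rank 3155 of 5027 and 171 of 3119), 112 and 168 bp upstream in the fasted livers (rank 419 of 5220 and 385 of 7632), and 128 and 16 bp upstream in JMJD1C-LKO (rank 1028 of 1450 and 448 of 825). Fdft1 had summits 181 and 91 bp upstream in the refed livers (rank 2040 of 5027 and 1049 of 3119) and 163 bp upstream in fasted replicate 2. Ranks of the same promoter differed widely between livers of one group, by 5.48% against 62.8% of the list for Ggps1 in the refed pair.

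Summits in a single refed liver were seen at Fdps (55 bp upstream, replicate 2), Lbr (32 bp upstream, replicate 2), Lss (94 bp upstream, replicate 1) and Nsdhl (76 bp downstream, replicate 1). Hsd17b7 had one in fasted, refed and JMJD1C-LKO replicate 1, and Dhcr7 in fasted replicate 1, refed replicate 2 and JMJD1C-LKO replicate 1. The Dhcr7 summits lay 295 to 409 bp upstream of its first start, by the start of Nadsyn1, which is 315 bp away. Insig2 had a summit in fasted and refed replicate 1 at its downstream starts and none at the start at position 121332589. Acat2 had its single summit 177 bp downstream of the start.

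Of the 28 genes, 7 share a start region with another gene within 1000 bp, so a summit there belongs to both, and these neighbours are named for their position. Mmab, an enzyme of cobalamin metabolism whose start is 242 bp from that of Mvk, was at 11.8 and 11.8 CPM in WT and 13.3 and 11.9 CPM in JMJD1C-LKO (log2 fold change 0.10, SE 0.11, adjusted p = 0.547). Arid4b, 296 bp from Ggps1, was lower in JMJD1C-LKO (log2 fold change -0.27, SE 0.08, adjusted p = 0.029), and Nadsyn1, Isca2 (158 bp from Npc2), Cetn2 (177 bp from Nsdhl), 9330133O14Rik (234 bp from Mvd) and 3110045C21Rik (204 bp from Hsd17b7) did not pass the threshold. Whether a member and its neighbour changed by different amounts was not tested.

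In the RefSeq promoter table, which spans 250 bases before to 50 after each start, 21 of the 28 members have an entry (not Acat1, Fdps, Fdft1, Sqle, Stard4, Npc1 and Soat2). A CCAAT box was present in 19 of 21, or 90.5%, against 41.1% of 27025 genes and 42.6% of 10974 genes tested in the RNA-seq. The GC box GGGCGG was also present in 19 of 21, against 38.2% and 65.1%. The E-box CACGTG was present in 5 (Hsd17b7, Sc5d, Dhcr7, Insig1 and Scap), or 23.8%, against 8.09% and 11.4%, and the SRE core TCACNCCAC in 1, Hmgcs1, or 4.76%, against 1.44% and 1.48%. With each gene counted at its most GC-rich promoter, the median GC content was 62.7% for the members. It was 61.3% for the genes tested in the RNA-seq and 53.3% for all genes. All motifs were searched on both strands, a gene counts where at least 1 of its promoters holds the letters, and a match is a description of the sequence. Only these exact letters were searched and other forms of an SRE were not. A promoter without a match is therefore not shown to lack an SRE.

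Members that were lower and members that were higher in JMJD1C-LKO were found both with and without an ATAC-seq summit. Of the 9 members with a summit in both refed WT livers, 3 were lower in JMJD1C-LKO (Mvd, Idi1 and Fdft1), 3 were higher (Mvk, Msmo1 and Npc2), and 3 did not pass the threshold. Of the 11 members without a summit in any liver, 4 were lower and 5 higher, among them Stard4 and Sqle, which were lower, and Scap and Tm7sf2, which were higher. The RNA-seq and ATAC-seq libraries came from different samples, and no test was made of this relation.

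H3K9me2 is a histone mark known from silent chromatin, and it is the mark that JMJD1C is known to remove. In the same window H3K9me2 summits were found at 14 and 28 of the 28 genes in the fasted WT livers (29.3% and 42.7% of all genes) and at 0 and 26 in the refed WT livers (0.233% and 35.1%). Both fasted livers had one at 14 members, against 29.1% of all genes and 51.3% of genes tested in the RNA-seq, and both refed livers at 0 members, against 0.0420%. The 0 comes with refed replicate 1, and without that library 26 members had a summit when refed, all but Lbr and Soat2. Fasted and refed livers can therefore not be compared for this mark, since one library decides the refed count.

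The H3K9me2 summits at these genes lay mostly downstream of the start and the ATAC-seq summits mostly close to it, with ranges that overlapped (-655 to 943 bp and -409 to 177 bp). For each gene and liver, only the summit nearest to a start was taken. Over all livers, the 68 H3K9me2 summits taken at members had a median position 316.5 bp downstream of the start. Of these, 62 lay downstream, 56 of them more than 200 bp downstream. The 46 ATAC-seq summits at 17 members had a median position 89.5 bp upstream, 42 of them within 200 bp of the start and 0 more than 200 bp downstream. Summits of one promoter in several livers are not independent, so these numbers are a description. The median over all genes was 222 to 258 bp downstream in the 3 H3K9me2 livers other than refed replicate 1.

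**Figure D5:**
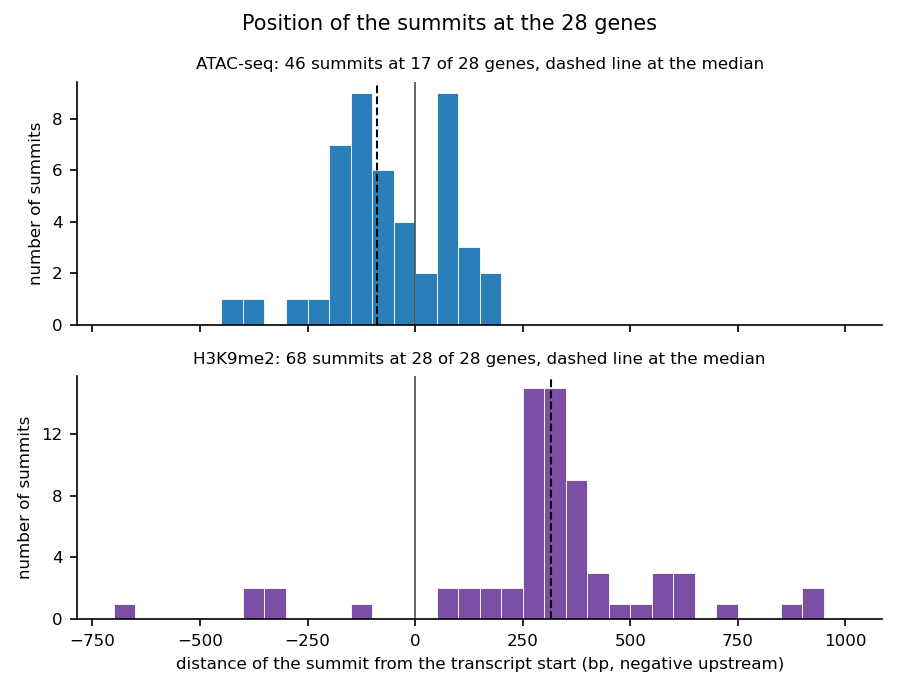
Number of summits by distance from the transcript start (bp, negative upstream, bins of 50 bp), for 46 ATAC-seq summits (top) and 68 H3K9me2 summits (bottom) at the 28 genes over all livers. Each gene gives only its nearest summit in each liver. The dashed medians lie at -89.5 and 316.5 bp.

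The strongest H3K9me2 summits in refed replicate 2 were at Msmo1 (341 bp downstream, in the first 1.66% of its list), Cyp51 (559 bp, 4.14%), Sc5d (335 bp, 4.68%), Insig1 (292 bp, 5.45%) and Npc1 (293 bp, 6.74%). In fasted replicate 2 they were at Stard4 (327 bp downstream, 5.0%), Npc1 (283 bp, 5.16%), Hmgcs1 (356 bp, 5.39%) and Acat1 (235 bp, 7.46%). These are ranks within 1 liver each and give no comparison of fasted with refed. The weakest was Soat2, 706 bp downstream at 98.3% in fasted replicate 2. In at least 1 refed WT liver, 16 members had an ATAC-seq summit (11.4% of all genes) and 26 a H3K9me2 summit (35.3%). Both were found at 15 members, among them Msmo1 and Cyp51. With 26 of 28 members marked, most members with an ATAC-seq summit had to have both. The share of all genes with both was not computed.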

How the data were processed

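Livers of WT and JMJD1C-LKO mice were profiled by RNA-seq, ATAC-seq and H3K9me2 ChIP-seq with input, 2 samples per group. The RNA-seq table, as deposited by the authors, holds raw estimated counts for each RefSeq transcript (65.4% to 65.9% of them fractional), and the submitters' processing notes name HISAT2, Partek and DESeq2, with the role of each not stated. For ATAC-seq and ChIP-seq the authors called peaks in each liver with MACS2 (version 2.1.1 in the notes) on mm10 at a q-value of 0.05, after BWA for ATAC-seq and Bowtie2 with input for ChIP-seq, and deposited the summits with a score, the −log10 of the q-value. Scores were compared by rank within a liver only. A second deposited table, the authors' own comparison of fold changes and p-values, was not used.

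Transcript counts were summed per gene and rounded. Genes were tested by quasi-likelihood in edgeR 4.0.16 (R 4.3.3) after filterByExpr and TMM scaling, with Benjamini-Hochberg adjustment over 14151 genes, threshold 0.05 and no block. SE is the log2 fold change divided by the root of F. On simulated counts the recovery of calls and of fold changes was checked, and the SE was not. Since each RNA sample is a pool, p-values measure the spread between the pooled samples of a group. Summits were assigned to genes within 1000 bp of a RefSeq GRCm38.p6 start (26180 genes). Other fits were DESeq2 1.42.0, no TMM, no filter, at least 1 CPM in 2 libraries, a replicate block, the highest transcript per gene, and each library left out. For summits they were windows of 500 and 2500 bp, scores of at least 5, equal list lengths, and single or either livers.

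The 28 genes and all lists were chosen with earlier results of these data known. All members are named, with values in every sample for those past the threshold or with an ATAC-seq summit. At most 4 genes past the threshold are named from each of the other lists.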

Additional observations from a re-analysis of the deposited data

How the results depend on the processing

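Counts of members rested on the RNA libraries used. Leaving out each library in turn gave 1 to 11 members lower and 2 to 9 higher in JMJD1C-LKO, and 408 to 2590 genes lower and 660 to 2590 higher over all genes. Of the 17 members past the threshold, 3 kept the call without WT replicate 1 (Dhcr7, Insig2 and Stard4), 5 without WT replicate 2, and 14 each without JMJD1C-LKO replicate 1 or 2, and none of the 17 changed sign in these fits. A fit of the highest transcript per gene gave 2 members lower and 6 higher, with 1063 and 1263 over all genes, and transcripts fitted separately gave 0 and 3. The cause was not tested. Of members not past the threshold, Ggps1 turned to 0.245 (log2) in the fit of the highest transcript, and without single libraries Hsd17b7 ranged from -0.0296 to 0.155 and Ebp from -0.118 to 0.032. DESeq2 kept 14 of 17 calls and the fits without TMM or without the filter 16 each. The same-numbered libraries did not deviate together (correlation -0.017), and the replicate block, which left 1 residual degree of freedom, kept all 17 calls, with 7 members lower and 10 higher and 1996 and 2211 genes over all.

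Leaving out each liver gave 14 to 28 members with H3K9me2 summits when fasted and 0 to 26 when refed, and 4 to 9 with ATAC-seq summits when fasted, 12 to 13 when refed and 1 to 7 in JMJD1C-LKO. Taking either liver gave 28, 26, 10, 16 and 7. With equal list lengths no member had a summit in both livers for H3K9me2 fasted, ATAC-seq refed or ATAC-seq JMJD1C-LKO (0 each), while ATAC-seq fasted kept 2, so that the order of refed (9) and fasted (3) turned to 0 and 2. Fewer summits were kept in these lists. Other windows and scores left these counts within 1.5 times. Single members did not all hold at scores of at least 5. The summits of Mvd in refed replicate 1 (score 4.16) and of Msmo1 in both refed livers (4.96 and 3.51) lay below that limit. The pattern of a summit in both refed and neither fasted WT liver rests on these summits. Summit depth is unknown.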
